A study of Homo sapiens with 50 samples.

Results

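The regions described here are pause sites that lie 0 to 19 bp downstream of the listed 5' end of their gene in DLD-1, an established cell line from a human colorectal adenocarcinoma. They were chosen by that distance alone, and 459 of the 6481 listed genes (7.08%, 95% Wilson interval 6.48 to 7.73%) met it. The series holds 50 chromatin immunoprecipitation sequencing libraries from DLD-1 cells that express the plant F-box protein OsTIR1, either without a tagged protein or with an auxin-inducible degron (AID) on SPT6, on PAF1, on SPT6 and PAF1, or on SPT6 and NELF-C. Treatment was with vehicle (2 h) or with auxin (0, 2 or 6 h), which triggers breakdown of the tagged proteins, and the antibodies were against the Pol II subunit RPB1, SPT6, NELF-C or subunits of the PAF1 complex and its partner RTF1, with 1 input library. The lists used here give 1 gene interval and 1 pause site of 1 bp per gene for the whole series, with no value for any library, so no group of libraries was compared and the read depth at the sites is unknown. The assay, samples and caller behind the sites are not given in the sources used here. Of 20 colon epithelium markers 9 were listed, and of 12 fibroblast and 12 blood markers 0 each.

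RNA polymerase II (Pol II) initiates at a start site, often at an adenine or guanine that follows a cytosine or thymine, and then halts a short way downstream. The halted polymerase is held by DSIF, made of SPT4 and SPT5, and by NELF, and is released into elongation by the kinase P-TEFb. SPT6 and the PAF1 complex travel with elongating Pol II, and the study addressed their part in pause release. Many promoters use several start sites, so the distance from start to pause depends on which start is taken as the gene's 5' end.

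The sequences at the shortest distances are shown first, because the choice of these genes did not read the bases around start and pause. The choice did place each site among the first bases after the listed start. The base at the site is therefore not independent of the distance. Each run has 30 bases on the gene's strand, from 9 bases before the listed first base to 20 after it. The bases come from RefSeq promoter windows (GRCh38.p14, whose primary chromosomes are numbered as in hg38). Capitals mark the listed first base, the pause site and the base after the pause site, which adjoin or coincide where the distance is 0 or 1 bp. Of the 10 entries at 0 or 1 bp, these 5 were held by the windows.
FGD4 (chr12:32399558-32399587, plus strand, 0 bp): gcagataccGAgacgctgcgactgccgcag
ACP7 (chr19:39084359-39084388, plus strand, 1 bp): ggtggcgggAGAggcgcgtgcgggcagccg
RTEL1 (chr20:63658326-63658355, plus strand, 1 bp): ctcagcgccGACtgcgcgcctctgcccgcg
SEC31A (chr4:82891101-82891130, minus strand, 1 bp): cgctgcactAACgcaggatccggctgccga
TM4SF19 (chr3:196338529-196338558, minus strand, 1 bp): tcctgccttAGAatcacatgaaaatgagca

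In the next set the listed first base is also the outermost start of the gene in RefSeq, so the short distance does not depend on which of these starts is used. Of the 10 shortest such distances, the windows held these 7.
IRAK2 (chr3:10164910-10164939, plus strand, 2 bp): gtccgacccAgTCgtcccgcgccggagccg
MYH10 (chr17:8630705-8630734, minus strand, 2 bp): cagcggtggGtTTgggactgaggcgctgga
TNPO2 (chr19:12723912-12723941, minus strand, 3 bp): ccaggtttcAgtCCagcggaactggctacc
C9orf152 (chr9:110208139-110208168, minus strand, 4 bp): cccagccccAgtcCCagctctgccaggaaa
STX16 (chr20:58651274-58651303, plus strand, 4 bp): gctgcagtcAgatCCggggatggagggagc
ATOH8 (chr2:85753982-85754011, plus strand, 5 bp): agcgacttcAgatgACactctgagcgctcc
ITPKA (chr15:41493865-41493894, plus strand, 5 bp): agccgctccAgtccCCggcgcgccgcgggc

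At the upper edge of the range, 26 entries lay at 19 bp and 27 at 20 bp, just inside and just outside the limit. The 7 runs that follow are those at 19 bp whose listed and RefSeq starts were the same base and that the windows held.
CEP97 (chr3:101724605-101724634, plus strand, 19 bp): ccctccttcAgattacaagctccacagaGC
EEPD1 (chr7:36153245-36153274, plus strand, 19 bp): cgcggccggGactttggctttgacaccgAC
KLHL4 (chrX:87517793-87517822, plus strand, 19 bp): tgtgcttttGttagttctacagaagaggCA
MEGF9 (chr9:120714450-120714479, minus strand, 19 bp): ccgcctgtcAgagggaggtggcgatggtGC
MELK (chr9:36572886-36572915, plus strand, 19 bp): gaagcggccAcaacccggcgatcgaaaaGA
SPATA20 (chr17:50547165-50547194, plus strand, 19 bp): tcccttcctGtcctcagcggccgggcccAC
TFCP2L1 (chr2:121285182-121285211, minus strand, 19 bp): cggcaccgcGggttcggagcgcgaagccGC

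Of the listed genes for pausing and elongation factors, SUPT5H and NELFB were in the range.
SUPT5H (chr19:39445652-39445681, plus strand, 3 bp): agaggtggcAgtTCcgggcgccggggaggt
NELFB (chr9:137255318-137255347, plus strand, 9 bp): gaagtgggcGgctgcgggACgcgcgcggag

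In these 21 runs the listed start is mostly a purine after a pyrimidine and the base after the pause site is mostly a cytosine. MYH10, which encodes the heavy chain of nonmuscle myosin IIB, was an exception with a thymine after its site. FGD4, ACP7 and TM4SF19 among the entries at 0 or 1 bp, and KLHL4 and MELK at 19 bp, had an adenine there.

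Across all covered pause sites, the base directly after the site was a cytosine in 207 of 244 genes at 0 to 19 bp (84.8%, 95% Wilson interval 79.8 to 88.8%). Whether the deposited position is the last base of the RNA or a base next to it is not given, so the base after the site is counted from the listed coordinate. The assay is not given either, and the source of the cytosine was not tested. In the remaining listed genes it was a cytosine in 1521 of 1757 (86.6%, 84.9 to 88.1%). A guanine followed the site in 1 of 244 and in 6 of 1757 genes. At the matching positions, counted from their own listed 5' ends, the other genes held a cytosine in 31.3% and a guanine in 38.2%, and cytosine made up 28.4% of the first 21 bases after the starts of all RefSeq promoters. The cytosine lay on the next base along the gene on either strand, in 107 of 124 plus strand sites (86.3%) and 100 of 120 minus strand sites (83.3%). The promoter windows end 50 bases after a RefSeq start, so they covered fewer of the sites farther from the start, and sites outside them were not read.

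The cytosine was found at each band of distance. It followed 33 of 42 covered sites at 0 to 4 bp (78.6%, 64.1 to 88.3%), 49 of 58 at 5 to 9 bp (84.5%), 52 of 59 at 10 to 14 bp (88.1%) and 73 of 85 at 15 to 19 bp (85.9%). Farther out it followed 168 of 210 at 20 to 29 bp (80%), 451 of 496 at 30 to 39 bp (90.9%, the highest band), 492 of 559 at 40 to 49 bp (88%) and 77 of 98 from 100 bp to below 200 bp (78.6%, the lowest of the bands to below 300 bp, shared with 0 to 4 bp). Genes whose listed start is the RefSeq start had it in 45 of 51 (88.2%, 76.6 to 94.5%), and those whose listed start lies over 10 bp downstream of RefSeq's in 127 of 148 (85.8%, 79.3 to 90.5%).

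**Figure D1:**
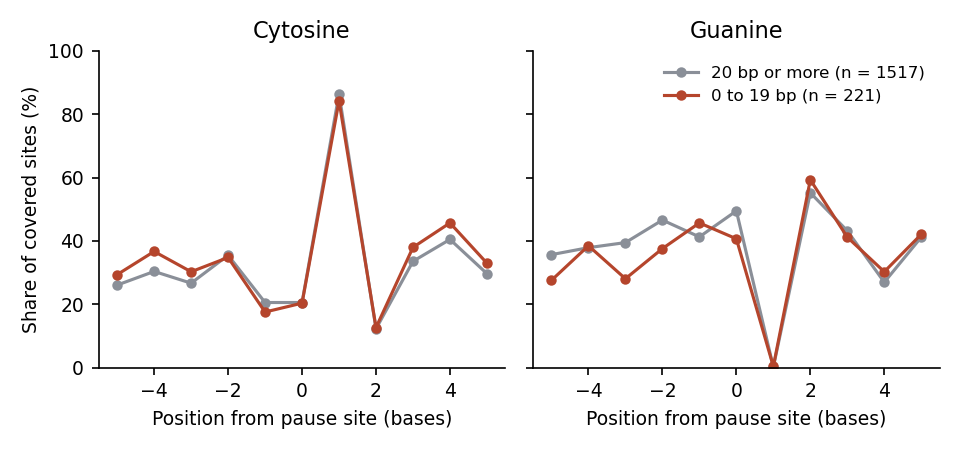
Share of covered pause sites (%) with a cytosine (left) or guanine (right) at each position from 5 bases before to 5 bases after the pause site, for 221 sites at 0 to 19 bp and 1517 at 20 bp or more whose whole stretch was covered; points are shares, joined by lines. Both sets peak for cytosine at 1 base after the site (84.2% and 86.4%), where guanine is at 0.452% and 0.264%.

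The base at the pause site itself was a guanine in 104 of 246 genes at 0 to 19 bp (42.3%, 36.3 to 48.5%) and in 910 of 1818 others (50.1%, 47.8 to 52.4%). It was an adenine in 63 of 246 (25.6%, 20.6 to 31.4%) and in 378 of 1818 (20.8%, 19 to 22.7%). At the matching positions, counted from their own listed 5' ends, the other genes held a guanine in 38% and an adenine in 13.8%. In the bands from 20 to 99 bp the guanine share lay between 49.3% and 55.1%. It was 38.8% (29.7 to 48.7%) from 100 bp to below 200 bp and 25.5% (15.3 to 39.5%) from there to below 300 bp. The base was read at only 98 of 881 sites from 100 bp to below 200 bp and 47 of 345 from there to below 300 bp. The windows end soon after a RefSeq start, so these sites lie near a RefSeq start other than the listed 5' end. They are a selected minority and cannot show the share for all sites at these distances. Among the sites read, a guanine share below that of the pooled others was not limited to short distances. Within the range the share ran from 10 of 42 at 0 to 4 bp (23.8%, 13.5 to 38.5%) to 46 of 86 at 15 to 19 bp (53.5%, 43.0 to 63.7%). A thymine stood at the site in 13 of 42 genes at 0 to 4 bp (31.0%, 19.1 to 46.0%) and in 5 of 86 at 15 to 19 bp (5.81%). The run GCG over the site and the next 2 bases was found in 54 of 241 genes (22.4%, 17.6 to 28.1%), against 418 of 1707 others (24.5%, 22.5 to 26.6%).

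The bases at the listed 5' ends were read in the same windows. The last base before and the listed first base were CA in 162 of 273 covered genes (59.3%, 53.4 to 65.0%), against 2127 of 4138 others (51.4%, 49.9 to 52.9%). Among the others at 20 to 49 bp it was CA in 931 of 1717 (54.2%, 51.9 to 56.6%). By band this was 51.1% at 20 to 29 bp, 58.5% (54.6 to 62.4%) at 30 to 39 bp and 52% at 40 to 49 bp. The intervals at 20 to 49 bp and at 30 to 39 bp overlapped that of the genes in the range. A pyrimidine followed by a purine was found in 249 of 273 (91.2%, 87.3 to 94.0%) and in 3571 of 4138 (86.3%, 85.2 to 87.3%). Where the listed start lay over 10 bp downstream of RefSeq's, 162 of 175 genes (92.6%) had this pair of bases. No test of a difference between these genes and the rest was made for these or any other shares. Shares carry Wilson intervals that cover counting error over genes, and genes are not replicates.

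Promoter motifs were searched on both strands. The TATA box in the form TATAAA, which positions Pol II at focused promoters, was found 40 to 20 bases before the listed start in 0 of 296 covered genes. A count of 0, read as at most 3 genes, allows a share of up to 1.01%, and the upper Wilson bound is 1.28%. It was found in 71 of 4319 others (1.64%) and in 975 of 35116 RefSeq promoters (2.78%). With listed and RefSeq starts within 10 bp, the counts were 0 of 71 (up to 4.23% by 3 genes, 5.13% by the Wilson bound) and 55 of 1792 (3.07%).

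The remaining motifs were searched from 100 bases before the listed start to the 20th base of the gene, a window of 120 bases. CCAAT, the site of NF-Y, was found in 31 of 211 genes (14.7%, 10.5 to 20.1%), in 855 of 3736 others (22.9%, 21.6 to 24.3%) and in 19.5% of all RefSeq promoters. With both starts within 10 bp it was found in 13 of 71 (18.3%, 11 to 28.8%) and in 446 of 1788 (24.9%, 23 to 27%), so the intervals overlapped there. GGGCGG, the GC box of the SP1 family, was found in 123 of 211 (58.3%) and in 2344 of 3736 (62.7%), against 32.9% of all promoters. CCGGAAG, an ETS family motif, was found in 28 of 211 (13.3%) and 554 of 3736 (14.8%). Guanine and cytosine made up a median of 71.7% of the window, against 70.8% in the others and 60% over all RefSeq promoters.

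Within the range the sites were not evenly spread. There were 77 at 0 to 4 bp, 111 at 5 to 9 bp, 122 at 10 to 14 bp and 149 at 15 to 19 bp, then 152 at 20 to 24 bp and 265 at 25 to 29 bp. By single bases, 5 genes lay at 0 bp and 5 at 1 bp, 17 at 2 bp, 35 at 3 bp and 15 at 4 bp. The count at 3 bp (20 plus strand and 15 minus strand genes) was exceeded inside the range only by that at 16 bp, with 36 genes. This distribution is what the choice of the genes used, so it is given as a description.

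**Figure D2:**
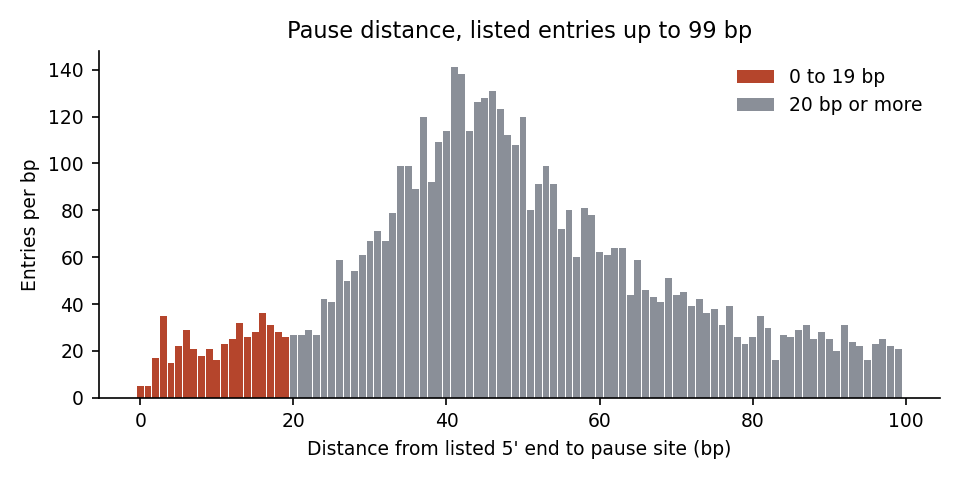
Number of listed genes per bp (vertical axis) by distance from the listed 5' end to the pause site in bp (horizontal axis), up to 99 bp; bars for the 459 genes at 0 to 19 bp are coloured. The coloured bars include a local peak of 35 genes at 3 bp, and the grey bars rise to 141 genes at 41 bp and decline to 21 at 99 bp.

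A symbol could be given to 414 of the 459 genes (90.2%), all of them protein coding, against 89.8% of the others. In these 414 genes the listed 5' end lay more than 10 bp downstream of the outermost RefSeq start in 298 (72.0%, 67.5 to 76.1%), against 2800 of 5408 others (51.8%, 50.4 to 53.1%). It was the RefSeq base itself in 72 (17.4%, 14 to 21.3%), against 26.5% (25.3 to 27.7%), and lay more than 10 bp upstream in 19 (4.59%) against 7.03%. The share with a listed start over 10 bp downstream was 80.6% (70.0 to 88.0%) at 0 to 4 bp, 72.2% at 5 to 9 bp, 73.8% at 10 to 14 bp and 65.9% (57.7 to 73.3%) at 15 to 19 bp. It was 64.3% at 20 to 29 bp and 49.8% (46.4 to 53.3%) at 30 to 39 bp. The distance and the position of the listed start share the same base. Moving that base downstream shortens the distance by construction, and a difference in the sites themselves cannot be told apart from this with the counts given.

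Read by class of annotated start, 7.11% of all named genes had a site at 0 to 19 bp. Among the 1503 genes with the same base in both sources it was 72 (4.79%, 3.82 to 5.99%), and with a listed start 1 to 10 bp downstream 22 of 713 (3.09%). The share was 114 of 1224 (9.31%, 7.81 to 11.1%) at 11 to 50 bp downstream, 80 of 694 (11.5%, 9.36 to 14.1%) at 51 to 300 bp and 104 of 1180 (8.81%, 7.33 to 10.6%) beyond 300 bp. Upstream classes held few of these genes, with 3 of 177 (1.69%) at 11 to 50 bp, 10 of 91 (11%, 6.08 to 19.1%) at 51 to 300 bp and 6 of 131 (4.58%) beyond.

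**Figure D3:**
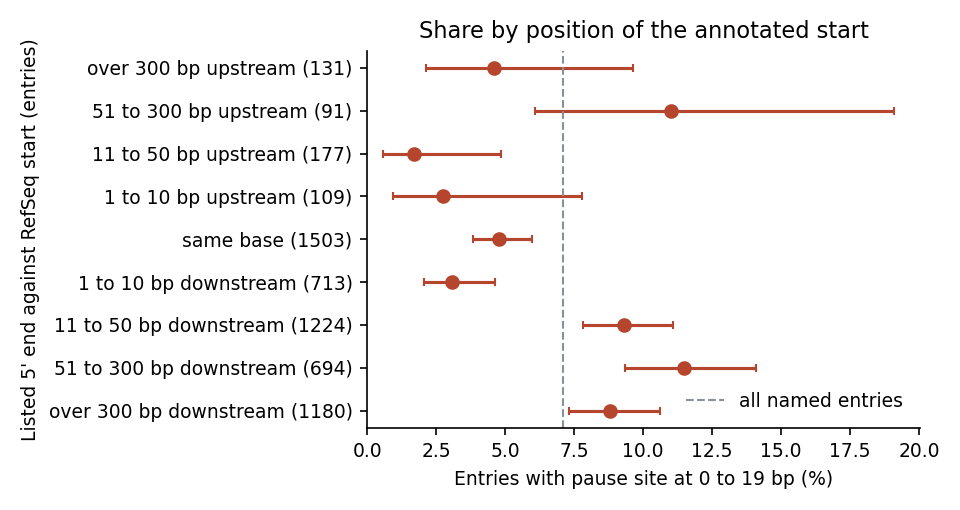
Share of named genes (%) whose pause site lies at 0 to 19 bp, by class of the listed 5' end against the outermost RefSeq start, with the number of genes per class in brackets; points are shares, bars 95% Wilson intervals, and the dashed line is the share of all named genes, 7.11%. Shares run from 1.69% at 11 to 50 bp upstream to 11.5% at 51 to 300 bp downstream.

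Measured from the outermost RefSeq start, the pause sites of these genes lay a median of 53 bp downstream, with quartiles of 19 and 316.8 bp. Those of the other named genes lay at a median of 86 bp, with quartiles of 50 and 241 bp. Of the 414, 91 (22%, 18.3 to 26.2%) were under 20 bp from RefSeq's start as well, against 0.462% of the 5408 others. Another 115 (27.8%) lay at 20 to 60 bp from it, against 29.6%, and 84 (20.3%) above 60 and below 300 bp, against 44.8%. At 300 bp or more there were 105 (25.4%), against 21.8%, and upstream of it 19 (4.59%), against 3.31%. In bins of 10 bp there were 58 genes at 10 to 19 bp, 18 at 20 to 29 bp, 31 at 30 to 39 bp, 42 at 40 to 49 bp and 24 at 50 to 59 bp. The bin of 10 to 19 bp (14%) was the most frequent for these genes, and that of 40 to 49 bp (10.1%) came next. For the other genes 40 to 49 bp was the most frequent (591, 10.9%). Where both starts are the same base, the choice of genes puts these genes at 0 to 19 bp and the others at 20 bp or more. The sets therefore differ below 20 bp by construction. Listed starts 20 to 49 bp downstream of RefSeq's were found in 99 of the 414 genes (23.9%, 20.1 to 28.2%) and in 789 of 5408 others (14.6%, 13.7 to 15.6%).

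**Figure D4:**
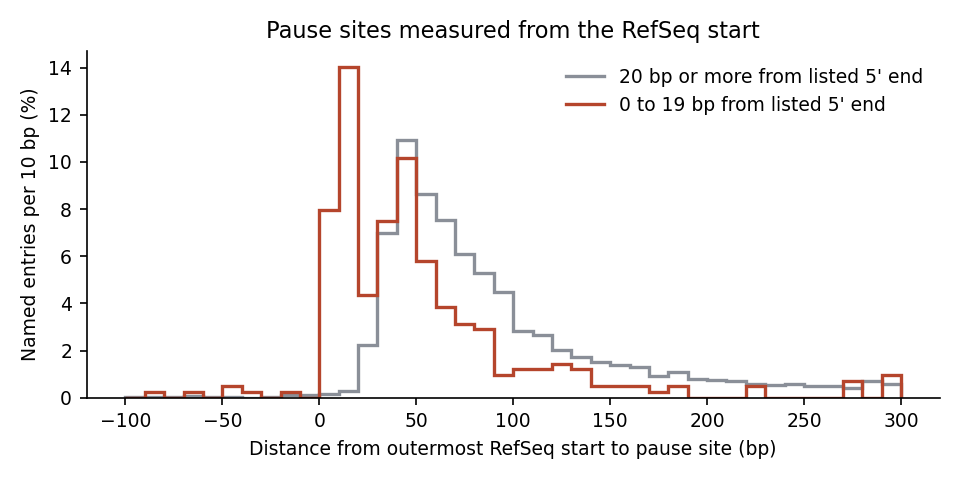
Share of named genes per 10 bp (%) by distance in bp from the outermost RefSeq start to the pause site, from 100 bp upstream to 300 bp downstream, for genes at 0 to 19 bp from the listed 5' end (coloured) and all others (grey); shares are of all named genes in each set. The coloured line has a peak at 10 to 19 bp (14%) and another at 40 to 49 bp (10.1%), where the grey line peaks (10.9%). Genes with the same start in both sources lie at 0 to 19 bp in the coloured set alone, by the choice of genes.

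Among the 62 genes at 0 to 3 bp, 57 had a symbol, and 8 of these were under 20 bp from RefSeq's start. Another 14 lay at 20 to 60 bp from it, 32 farther downstream and 3 upstream. The site of FH, the fumarate hydratase gene, was the listed first base (chromosome 1, minus strand, 241519711), 44 bp from RefSeq's start and followed by a cytosine. KIF5B, a kinesin heavy chain gene for transport along microtubules, stood at 2 bp by the listed end and at 38 bp by RefSeq's. PARP14, an ADP-ribosyltransferase gene, stood at 3 and 23 bp, and NEDD4, which encodes a ubiquitin ligase, at 3 and 38 bp. For SEC31A, which encodes an outer coat subunit of COPII vesicles, the values were 1 and 9449 bp, and for MBNL1, a splicing regulator gene, 2 and 25299 bp. These genes shared a short listed distance and differed widely by the outermost RefSeq start. That start need not be the one of the gene's own RefSeq promoter window. For FH, KIF5B, PARP14 and SEC31A both gave the same distance. By the window's start MBNL1 stood at 2 bp and NEDD4 at -76438 bp.

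Of all 414 genes FRMD6 had the largest difference between the starts, being listed 255516 bp downstream of RefSeq's outermost start. Next came TIAM1, a RAC exchange factor gene, 214839 bp, RAB27B 110620 bp, HSPA12A 108181 bp and LARP1, which encodes a regulator of mRNAs with a terminal oligopyrimidine tract, 72402 bp. Upstream differences were smaller, with offsets of -890 bp for MAGI1, -619 bp for SLC35D3, -596 bp for CYP1B1, a cytochrome P450 gene induced by the aryl hydrocarbon receptor, -585 bp for USP9X and -483 bp for RABEP2. Of the 459 genes, 341 had a RefSeq promoter window of their own. Measured from that window's start, the median was 44 bp in these 341 genes and 76 bp in 4468 others. By that measure 81 of the 341 (23.8%) were under 20 bp, against 25 of the 4468 (0.56%).

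The 72 genes with the same start in both sources had a median distance of 13.5 bp, from 2 to 19 bp. IRAK2, a kinase gene of interleukin-1 and Toll-like receptor signalling, stood at 2 bp (chromosome 3, plus strand, 5' end 10164919, site 10164921), as did MYH10. EFCAB6, MROH6 and TNPO2, which encodes a nuclear import receptor, stood at 3 bp. C9orf152 and STX16, a syntaxin gene of Golgi transport, stood at 4 bp, and ATOH8, EPN3 and ITPKA at 5 bp, where a tie with WASHC2A was broken by symbol order. A further 19 genes were under 20 bp from both starts although these differed. CD2BP2, whose product binds the tail of CD2, stood at 3 bp by the listed end and 5 bp by the other start.

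By function, the genes were spread over many processes. Of 34 gene lists 32 had a listed member, and in 23 of them at least 1 lay at 0 to 19 bp, to be read against the 7.11% of all named genes.

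Among 18 listed elongation factors 2 were in the range (11.1%, 3.1 to 32.8%). SUPT5H, which encodes the DSIF subunit SPT5 (ENSG00000196235.14, chromosome 19, plus strand, 5' end 39445661, site 39445664), stood at 3 bp by the listed end and 82 bp by RefSeq's. NELFB, a subunit of NELF (ENSG00000188986.9, chromosome 9, plus strand, 5' end 137255327, site 137255336), stood at 9 bp from both. None of 15 general transcription factor and Pol II subunit genes was in the range, which allows a share of up to 20% by 3 genes and 20.4% by the Wilson bound.

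Transcription factor genes were represented mostly by zinc finger genes, with 19 of 189 (10.1%, 6.53 to 15.2%). ZNF700 stood at 3 bp, ZNF24, ZNF343 and ZNF697 at 6 bp, ZNF579 at 7 bp and ZNF337 at 9 bp. ZNF24 and ZNF579 had the same start in both sources, whereas ZNF343 was listed 16095 bp downstream of RefSeq's. KLF6, a growth factor responsive gene, was the 1 of 22 immediate early genes in the range, at 8 bp by the listed end and 14 bp by RefSeq's. APCDD1, a Wnt inhibitor gene, was the 1 of 12 Wnt targets, at 8 and 53 bp. ELF3, an epithelial ETS factor gene and the 1 of 9 colon epithelium markers, stood at 10 and 48 bp.

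Of 14 heat shock genes 3 were in the range (21.4%, 7.57 to 47.6%), the co-chaperone genes FKBP4 at 7 bp, CHORDC1 at 9 bp and DNAJB4 at 16 bp. CHORDC1 had the same start in RefSeq, FKBP4 was listed 55 bp and DNAJB4 25764 bp downstream. Mitosis genes had 3 of 23, with NUF2 of the NDC80 kinetochore complex at 14 bp, KIF23, a cytokinesis kinesin gene, at 16 bp and the kinetochore motor gene CENPE at 18 bp. DNA replication genes had 2 of 19, GINS1 of the replicative helicase at 5 bp and PRIM1, the primase catalytic subunit gene, at 18 bp. Splicing factors had 2 of 21, SNRPB2 of the U2 particle at 5 bp and SF3A3 at 15 bp. PRIM1 and SF3A3 had the same start in both sources, and SNRPB2 stood at 26 bp from RefSeq's.

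Genes of energy metabolism in the range were FH and IDH1 (17 bp from both starts) among 9 citric acid cycle genes, and NDUFS6 of complex I (6 bp), UQCRC2 of complex III (7 bp) and COX5A of complex IV (11 bp) among 31 oxidative phosphorylation genes (9.68%, 3.35 to 24.9%). From RefSeq's start the last 3 stood at 62, 32 and 40 bp. Mitochondrial ribosomal proteins had 2 of 31, MRPL1 at 9 bp and MRPL20 at 11 bp, both listed 46 bp downstream of RefSeq's start. Secretory coat and translocon genes had 2 of 18, SEC31A and SEC24D (9 bp). Cytosolic ribosomal proteins had 0 of 36, translation factors 0 of 21 and proteasome subunits 0 of 20. By 3 genes these counts allow up to 8.33%, 14.3% and 15%, and by the Wilson bound up to 9.64%, 15.5% and 16.1%, all above 7.11%. No gene was in the range either among 11 p53 targets, 11 cholesterol synthesis, 10 integrated stress response, 7 glycolysis and 7 HOX genes. By 3 genes these counts allow up to 27.3%, 27.3%, 30%, 42.9% and 42.9%, so lists this small cannot show a share below 7.11%.

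Among gene families, solute carriers had 5 of 120 (4.17%, 1.79 to 9.38%), from SLC35D3 at 3 bp to SLC35A3 and SLC7A2 at 13 bp. RAB GTPases had 2 of 37, RAB18 and RAB27B at 18 bp. Ubiquitin-specific proteases had 4 of 28 (14.3%, 5.70 to 31.5%), USP9X at 5 bp, USP31 at 12 bp, USP48 at 14 bp and USP22 of the SAGA complex at 17 bp. Kinesins had 2 of 15, DEAD and DEAH box helicases 3 of 25, DNAJ genes 2 of 20, and TRIM and F-box genes 1 each of 26 and 29. Numbered TMEM genes had 4 of 74. Numbered CCDC genes, named for a coiled coil and not for a shared function, had 6 of 34 (17.6%, 8.35 to 33.5%), from CCDC93 at 6 bp to CCDC170 at 17 bp. This list and the heat shock genes were the 2 of 32 whose interval left out 7.11%. Grouped by the letters that open the symbol, 19 groups had at least 20 named genes. The highest share was that of UBE genes, which encode ubiquitin-conjugating enzymes and ligases, with 6 of 26 (23.1%, 11 to 42.1%): UBE2B at 13 bp, UBE2H and UBE3C at 16 bp, UBE4A at 17 bp, UBE2J1 at 18 bp and UBE2D2 at 19 bp. The UBE group was singled out after its values were seen. UBE and CCDC were the 2 of 19 groups whose interval left out 7.11%, and 4 groups had no gene in the range (ATP 0 of 39, EIF 0 of 26, RNF 0 of 28 and RPS 0 of 20). The upper Wilson bounds of these 4 were 8.97%, 12.9%, 12.1% and 16.1%, all above 7.11%.

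**Figure D5:**
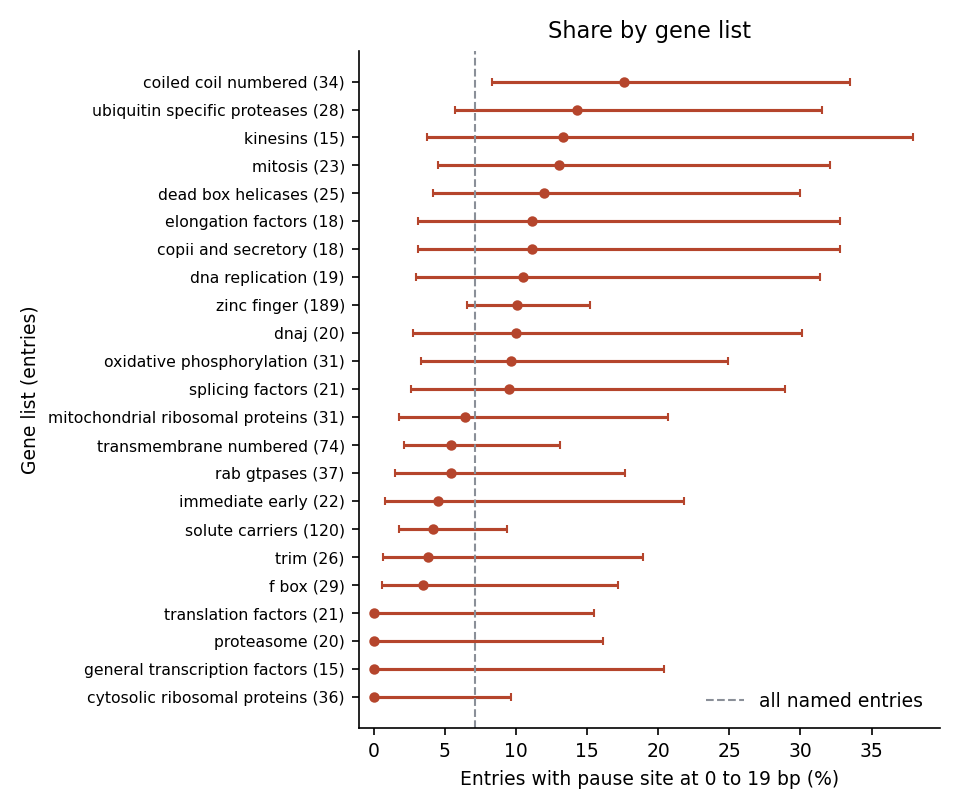
Share of listed genes (%) with a pause site at 0 to 19 bp for the 23 gene lists with at least 15 listed genes (numbers in brackets); points are shares, bars 95% Wilson intervals, and the dashed line is the share of all named genes, 7.11%. Shares run from 0 in 4 lists to 17.6% for numbered CCDC genes, and most intervals span the dashed line.

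Gene length was close to that of the rest. The median length was 34825 bp (quartiles 16481.5 and 80555 bp), against 35562.5 bp (15740.2 and 80613.5 bp) in the others. In 4 groups of near equal size by length, from the shortest to the longest, 6.72%, 7.65%, 6.85% and 7.1% of the genes were in the range. The shortest were ADRB1, a beta-adrenergic receptor gene (3039 bp, site at 16 bp), ARF5 (3254 bp, 11 bp), FAM241B (3285 bp, 14 bp), HLA-B (3305 bp, 16 bp) and TPBG (3543 bp, 16 bp). The longest were WWOX (1112941 bp, 11 bp), RABGAP1L (835728 bp, 3 bp), MAGI1 (686283 bp, 18 bp), APBB2 (404463 bp, 11 bp) and the unnamed ENSG00000104375.17 (371014 bp, 12 bp). The plus strand held 224 of the 459 (48.8%, 44.3 to 53.4%) and 52.0% of the others.

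All 24 chromosomes held at least 1 of these genes. Beside 1 of 5 genes on chromosome Y, the share ran from 6 of 128 on chromosome 13 (4.69%, 2.17 to 9.85%) to 21 of 178 on chromosome 20 (11.8%, 7.85 to 17.4%). Chromosome 20 was the 1 of 24 whose interval left out 7.08%.

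A protein-coding start on the opposite strand within 1000 bp upstream was found for 10 of the 459 genes (2.18%, 1.19 to 3.96%) and 1.81% of the others, and a long noncoding RNA start there for 48 (10.5%, 7.98 to 13.6%) and 13.4%. Another RefSeq gene covered the pause site in 56 of 414 named genes (13.5%) and 12.8% of the others. The nearest pause site of another listed gene lay a median of 89911 bp away, against 82696.5 bp. The closest pairs were MYD88, the adaptor gene of Toll-like receptors, with ACAA1 (1628 bp), PTGR3 with TSHZ1 (1851 bp), ENSG00000171320.15 with CCDC25 (2057 bp), ARF5 with GCC1 (2928 bp) and MDC1 with TUBB (3345 bp).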

How the data were processed

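The authors deposited 2 lists for the whole series, which hold genome coordinates in bp (hg38, per the names of the lists and the submitters' processing notes) and identifiers, with no counts and no value per library. The notes list deepTools 3.1.1, Bowtie2 2.2.6 and cutadapt 1.14 without saying what each did, and the steps that picked genes and pause sites are not given in the sources used here. Both lists were joined by identifier and converted to 1-based positions, and distance was counted along the strand from the listed 5' end.

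Symbols were given by position: exactly 1 RefSeq gene (GRCh38.p14) with its 3' end within 50 bp and covering at least 50% of the entry, which named 5822 of 6481 entries. An offset is the listed 5' end minus the outermost RefSeq start along the strand. Bases were read from 35116 RefSeq promoter windows (250 bases before to 50 after a start). The distance chose the genes, so no test was made. Shares have 95% Wilson intervals, and a count of 0 in a motif search or gene list also has the limit that 3 counts give. Distances, names and offsets were checked on simulated entries with known answers, whose starts were shifted by far less than the largest offsets reported. Their strands were drawn at random, so the check could not detect a name taken from a gene on the opposite strand. Window bases were checked by reading promoter windows back.

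The genes and lists were chosen with earlier results of these data known. The genes named were those at 0 to 3 bp, up to 6 per gene list, the first 5 by symbol at 19 and 20 bp, the 5 shortest and longest, the 10 shortest distances with the same start in both sources, the 5 largest offsets in either direction and the 5 nearest pairs, with a selection of these printed. The sequences at 19 bp and of NELFB, the UBE genes and the list forms for ribosomal protein, oxidative phosphorylation, DNAJ and F-box symbols were set after the data were seen. A further gene list is not reported here. Alternatives were limits of 15 and 25 bp, other ranges, another naming rule, named entries alone and other starts. Analyses ran in Python 3.11.15 with pandas 2.3.3, SciPy 1.17.1, matplotlib 3.10.9 and NumPy 2.4.6.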

Additional observations from a re-analysis of the deposited data

How the results depend on the processing

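Of 42 alternative values, 34 stayed within the interval of the value reported, or for median length within 1.5 times of it. The share of listed genes in the range was 4.78% under 15 bp and 9.43% under 25 bp. Measured from the outermost RefSeq start it was 1.99%, and from the start of the RefSeq promoter window, chosen after seeing the data, 2.2%. With the window's start, the share of genes listed over 10 bp downstream was 66% instead of 72%. Under 15 bp, guanine stood at 36.2% of pause sites and zinc finger genes stood at 5.29%. With starts within 10 bp of RefSeq's, CA across the listed start was at 66.2%. The cause of these shifts was not tested. A cytosine after the pause site was found in 83.0 to 84.8% under the reported and the alternative settings run. No paired analysis was possible because the lists carry no value for any sample. The sites have no score or depth, so a weakly supported site cannot be told from a strong one, and sites outside the promoter windows were not read.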
